A study of Caenorhabditis elegans with 12 samples.

Results

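The genes of the proteasome and of the main chaperone families were followed through the KLF-1-YFP ChIP-seq peak lists of *Caenorhabditis elegans*. Members were all genes whose symbol begins with *pas-*, *pbs-*, *rpn-*, *rpt-*, *hsp-*, *dnj-* or *cct-*. The RefSeq gene table of WBcel235 held 95 of them among 46926 genes, and 94 of the 95 were protein-coding, the exception being the pseudogene *hsp-2*. They had 29 of the 2777 rows in which a peak was assigned to a gene. KLF-1 is a Krüppel-like zinc finger transcription factor, and both strains carried the same integrated transgene that expresses KLF-1-YFP from the gut promoter of *vha-6*, together with the injection markers *prab-3::mCherry* and *rol-6(su1006)*. One strain also carried the mitochondrial mutations *isp-1(qm150)* and *ctb-1(qm189)*, which affect respiratory complex III, and is called *isp-1;ctb-1* below. The other strain, without these mutations, is called WT. Whole animals were collected on day 1 of adulthood, and each strain gave 3 ChIP libraries with 3 inputs. No ChIP from animals without the tag was analysed here, and a signal from the gut cannot be told apart from one of other tissues in whole animals.

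The 26S proteasome is the protease that degrades ubiquitin-tagged proteins. Its 20S core is a barrel of alpha subunits (*pas-*) and beta subunits (*pbs-*), of which some beta subunits carry the active sites, and its 19S cap holds a ring of ATPases (*rpt-*) that unfold the substrate and non-ATPase subunits (*rpn-*) that bind it and remove ubiquitin. Chaperones act before that point: HSP70 proteins bind unfolded chains in cycles driven by ATP, J-domain proteins (*dnj-*) deliver clients to them, small HSPs hold denatured proteins in a soluble state, and the CCT ring (*cct-*) folds actin and tubulin.

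At least 1 of the 6 ChIP libraries listed 14 of the 94 protein-coding members, which is 14.9%. The same held for 949 of all 19983 protein-coding genes, or 4.75%. A gene counts as listed when any peak of a library is assigned to it, whatever the fold enrichment, which is the ratio of the ChIP signal to the library's own input. At the stated threshold of a fold enrichment over 1.5 and a deposited p-value under 0.05, only 1 member was listed (1.06%), beside 260 of all protein-coding genes (1.3%). The share of members was then no higher than that of all genes, but 1 gene is too few to place it above or below. The *isp-1;ctb-1* libraries listed 12 members (12.8%, beside 4.01% of all protein-coding genes), and the WT libraries listed 6 (6.38%, beside 1.97%). Single libraries decided much of both counts. Without *isp-1;ctb-1* replicate 1, that strain listed 5 members (5.32%, beside 2.31%). Without WT replicate 2, WT listed 1 (1.06%, beside 1.47%), a share near the background and so not a result about the members. The 14 genes were *hsp-1*, *hsp-3*, *hsp-6*, *hsp-16.1*, *hsp-16.11*, *hsp-16.48*, *hsp-16.49*, *dnj-13*, *dnj-19*, *dnj-26*, *cct-7*, *cct-8*, *rpn-5* and *rpn-8*. Of the 61 chaperone genes 12 were listed (19.7%), 4 of them from 1 *hsp-16* cluster, and without these 4 the count was 8 of 57 (14%). Of the 33 proteasome genes 2 were listed (6.06%), a share near the 4.75% of all protein-coding genes.

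The 6 lists had different lengths. The *isp-1;ctb-1* replicates 1, 2 and 3 held 620, 386 and 565 peaks, against 577, 665 and 303 peaks in WT replicates 1, 2 and 3. They listed 663, 260 and 418 protein-coding genes in *isp-1;ctb-1*, against 283, 309 and 136 in WT. By the read numbers in the study's reporting form, every *isp-1;ctb-1* ChIP library was sequenced more deeply than any WT ChIP library, so that strain and depth cannot be told apart. Mitochondrial DNA was itself covered by a broad peak in each list, at a fold enrichment of 1.33, 1.45 and 1.66 in *isp-1;ctb-1* and of 2.06, 2.01 and 1.89 in WT. The 17 member peaks of *isp-1;ctb-1* had folds 21.2% to 81.9% above that of the mitochondrial DNA peak of their own library, while the 5 of WT lay between 14.7% below it (-14.7%) and 2.07% above it. The whole lists stood in the same order: the median fold of all peaks was 1.94, 1.53 and 1.73 in *isp-1;ctb-1*, above the mitochondrial DNA peak in each library, and 1.86, 1.86 and 1.67 in WT, below it in each, so this contrast is not particular to the members.

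Member genes numbered 11, 3 and 4 in *isp-1;ctb-1* replicates 1, 2 and 3, and 1, 5 and 0 in the WT replicates. The groups overlapped, since WT replicate 2 listed more members than *isp-1;ctb-1* replicates 2 and 3. The mean was 6 ± 4.36 genes per *isp-1;ctb-1* library and 2 ± 2.65 per WT library (SD, n = 3 each), a difference of 4 genes (two-sided exact permutation test over libraries, p = 0.3, adjusted p = 0.6 over 4 such tests; the smallest p that 3 libraries against 3 can give is 0.1). Without *isp-1;ctb-1* replicate 1 the difference was 1.5 genes. As a share of the protein-coding genes of a list, which takes out its length, members made up 1.66%, 1.15% and 0.957% in *isp-1;ctb-1* and 0.353%, 1.62% and 0% in WT. The means were 1.26% ± 0.362 and 0.657% ± 0.851 (SD, n = 3 each), which differed by 0.599 percentage points (exact permutation test, p = 0.3, adjusted p = 0.6).

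All but 1 of the 5 members of WT replicate 2 were neighbouring *hsp-16* genes that share the same peaks. With the 4 *hsp-16* genes counted as 1, a choice made after seeing the data, the numbers were 9, 3 and 4 in *isp-1;ctb-1* and 1, 2 and 0 in WT. The strains then no longer overlapped, and the difference of 4.33 genes reached the smallest p that the design allows (exact permutation test, p = 0.1). The shares counted in this way were 1.36%, 1.15% and 0.957% in *isp-1;ctb-1* and 0.353%, 0.654% and 0% in WT, again without overlap (difference 0.822 percentage points, exact permutation test, p = 0.1). The choice lowered the count of WT replicate 2, the library that had made the strains overlap. Neither separation is therefore support for a difference between the strains, and neither p was adjusted.

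**Figure D1:**
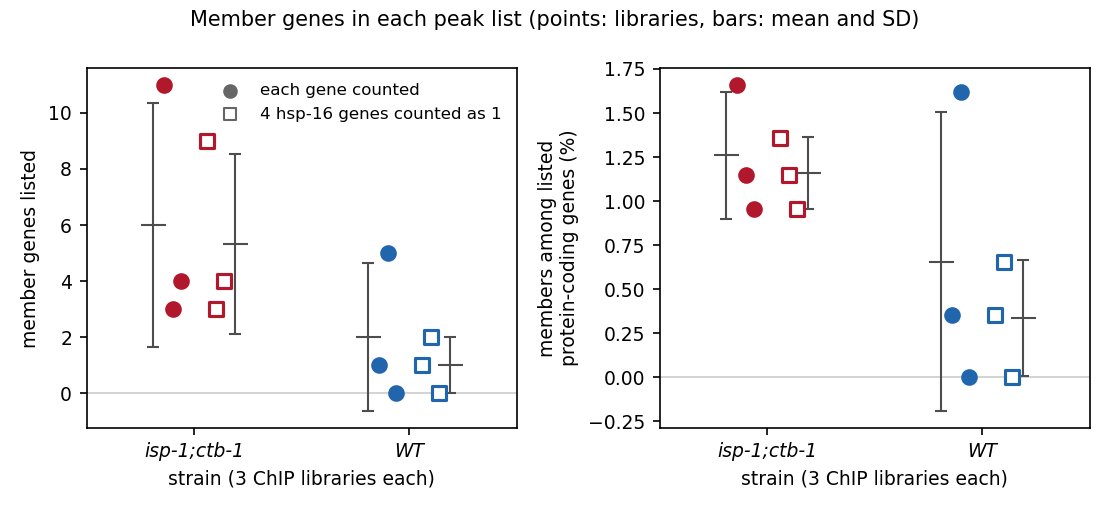
Number of member genes listed (left) and their share of the protein-coding genes listed (right, in percent) in the 3 *isp-1;ctb-1* and the 3 WT ChIP libraries. Points are libraries, bars give the mean and SD, and open squares count the 4 *hsp-16* genes as 1; counted gene by gene the strains overlap, because WT replicate 2 holds 5 members, and with *hsp-16* counted as 1 they do not.

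At least 2 of the 3 *isp-1;ctb-1* libraries listed 4 members, *hsp-1*, *hsp-3*, *cct-7* and *dnj-19* (4 of 94, beside 1.83% of all protein-coding genes). At least 2 of the 3 WT libraries listed 0 members, beside 1.05% of all protein-coding genes, and 0 recurred in this way in both strains, beside 0.57%. The difference between these 2 counts was not tested, and the first count was 2 when replicate 1 or replicate 3 of *isp-1;ctb-1* was left out, *hsp-1* and *hsp-3* (1.09% and 1.02% of all protein-coding genes). Only *hsp-3* was listed in 3 *isp-1;ctb-1* and 0 WT libraries (0.45% of all protein-coding genes), and no member had the opposite pattern (0.0651%). Both strains listed *hsp-1*, *hsp-16.1*, *hsp-16.11* and *hsp-16.49* at least once (4 members, beside 1.23%), and no member was listed in all 6 libraries (0.23%). With shares this small over all protein-coding genes, these counts of 0 or 1 among 94 members are not a result about the members.

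By role, the HSP70 and HSP110 group had the largest listed share, 3 of 6 genes, followed by the small HSPs (4 of 15, all from 1 *hsp-16* cluster), the CCT chaperonin (2 of 8), the non-ATPase subunits of the 19S cap (2 of 13) and the J-domain proteins (3 of 29). None of the 3 HSP90 and HSP60 genes, the 6 ATPases of the 19S cap, the 7 alpha subunits or the 7 beta subunits of the 20S core was listed in any library. With 4.75% of all protein-coding genes listed, counts of 0 in groups of this size are not a result about these genes, and the shares of the groups were not tested against each other.

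**Figure D2:**
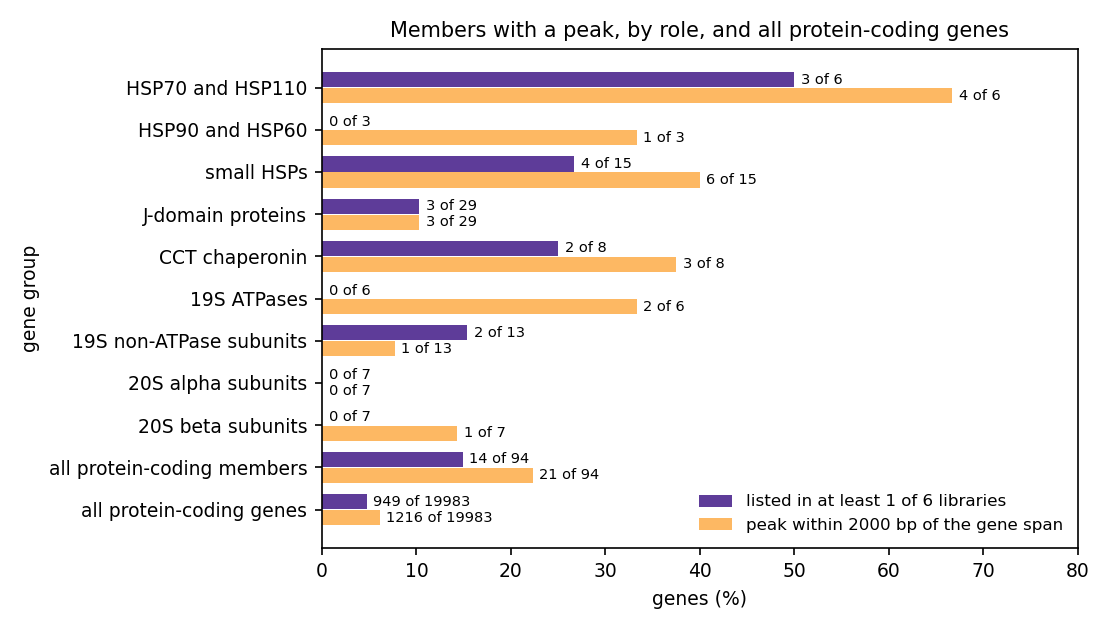
Percent of the genes of each role, of all protein-coding members and of all protein-coding genes that were listed in at least 1 of the 6 libraries (dark bars) or had a peak within 2000 bp of the gene span (light bars), with the counts beside the bars. The HSP70 and HSP110 group reaches 3 of 6 and 4 of 6, the 20S alpha subunits 0 of 7 by both measures, and all protein-coding genes 949 and 1216 of 19983.

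*hsp-1*, which encodes the constitutive HSP70 of the cytosol, was the member listed most often, in 3 *isp-1;ctb-1* libraries and 1 WT library. It lies on chromosome IV at 17278959 to 17281330, on the plus strand. Its peak had a fold enrichment of 2.42, 2.25 and 2.36 in *isp-1;ctb-1* replicates 1, 2 and 3, and of 2.06 in WT replicate 1. These peaks ranked 59 of 620, 14 of 386 and 38 of 565 for *isp-1;ctb-1* and 109 of 577 for WT. They ended 44, 185 and 267 bp before the gene in *isp-1;ctb-1* and 256 bp before it in WT. All 4 peaks lay within a stretch of 690 bp (IV, 17278226 to 17278915) and had 217 bp in common (17278476 to 17278692), so that the same upstream interval was called in both strains. The deposited p-values were 0.0288, 0.0557 and 0.0573 in *isp-1;ctb-1* and 0.22 in WT. The first of these was the only member row of any library below 0.05, and thus the only one to pass the stated threshold of a fold over 1.5 with a p under 0.05, which 1.3% of all protein-coding genes passed at least once. The WT fold equalled that of mitochondrial DNA in the same library to within 0.1% (-0.00727%). The same peaks were also assigned to *gln-5*, a glutamine synthetase gene 4574 to 4824 bp away.

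*hsp-3*, which encodes an HSP70 of the endoplasmic reticulum (a BiP), had a row in each of the 3 *isp-1;ctb-1* lists, while WT lists held none. The fold enrichment was 1.84, 2.06 and 2.24 in replicates 1, 2 and 3, with ranks of 390 of 620, 41 of 386 and 56 of 565. The peak therefore stood in the upper part of 2 lists and below the middle of the third. The 3 peaks had 285 bp in common (X, 6092025 to 6092309) and crossed the start of the gene as the lists give it, at 6092124 on the minus strand. The RefSeq table ends *hsp-3* at 6091785, and by that span the peaks lie 141 to 240 bp beyond the gene, so "over the gene" depends on the annotation. The other ER HSP70 gene, *hsp-4*, had no peak within 2000 bp in any library. The peaks of *hsp-3* were also assigned to C15H9.5, whose start lies 928 to 977 bp away.

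*hsp-6*, the gene of the mitochondrial HSP70, was listed only in *isp-1;ctb-1* replicate 2. Its peak had a fold enrichment of 1.99 and ranked 53 of 386. It lay 292 bp upstream of *hsp-6* (V, 4824130 to 4826760, minus strand) but closer to the neighbouring gene C37H5.5, at 62 bp. *hsp-60*, which encodes the mitochondrial chaperonin, was not listed, although *isp-1;ctb-1* replicate 1 held a peak 470 bp from it with a fold enrichment of 1.89 and no assigned gene.

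*cct-7*, a subunit gene of the CCT ring, had rows in *isp-1;ctb-1* replicates 1 and 3 but not in WT. The peak near the gene (V, 1872246 to 1875526, plus strand) had a fold enrichment of 2.13 in replicate 1 and 2.01 in replicate 3, and ended 193 and 202 bp upstream. These 2 peaks shared 220 bp. A further peak in replicate 1, with a fold enrichment of 2.28, lay 3231 bp upstream and over T10B5.3. The near peak overlapped T10B5.4 in replicate 1 and lay 36 bp from it in replicate 3, in a gap between divergent genes. *cct-8*, another CCT subunit gene, was listed in *isp-1;ctb-1* replicate 1 alone, with a fold enrichment of 2.06 at 245 bp upstream, and Y55F3AR.2 was closer to that peak, at 111 bp.

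*dnj-19*, a gene for a J-domain protein of the DNAJA class, was listed in the same 2 *isp-1;ctb-1* libraries as *cct-7*. Its peaks had fold enrichments of 2.13 in replicate 1 and 2.16 in replicate 3, at 225 and 245 bp upstream (V, 5503033 to 5504856, minus strand), and shared 249 bp. Both lay over the start of *nhr-47*, a nuclear hormone receptor gene that runs the other way. *dnj-13*, for a J-domain protein of the DNAJB class, was listed in *isp-1;ctb-1* replicate 1 with a fold enrichment of 1.94. The list places this peak over the gene start, whereas the RefSeq span begins 97 bp from it. *dnj-26* was listed only in WT replicate 2, with a fold enrichment of 1.91 at 4339 bp upstream, the greatest distance among the members.

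Fold enrichments were coarse, with 270 distinct values among the 620 peaks of *isp-1;ctb-1* replicate 1. The near peak of *cct-7* and the peak of *dnj-19* there had the same fold of 2.13, and each shared it with 12 other peaks of that list. Of the 22 member peaks, 14 shared their fold with another peak of the same list, so that a rank among such peaks is not resolved.

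**Figure D3:**
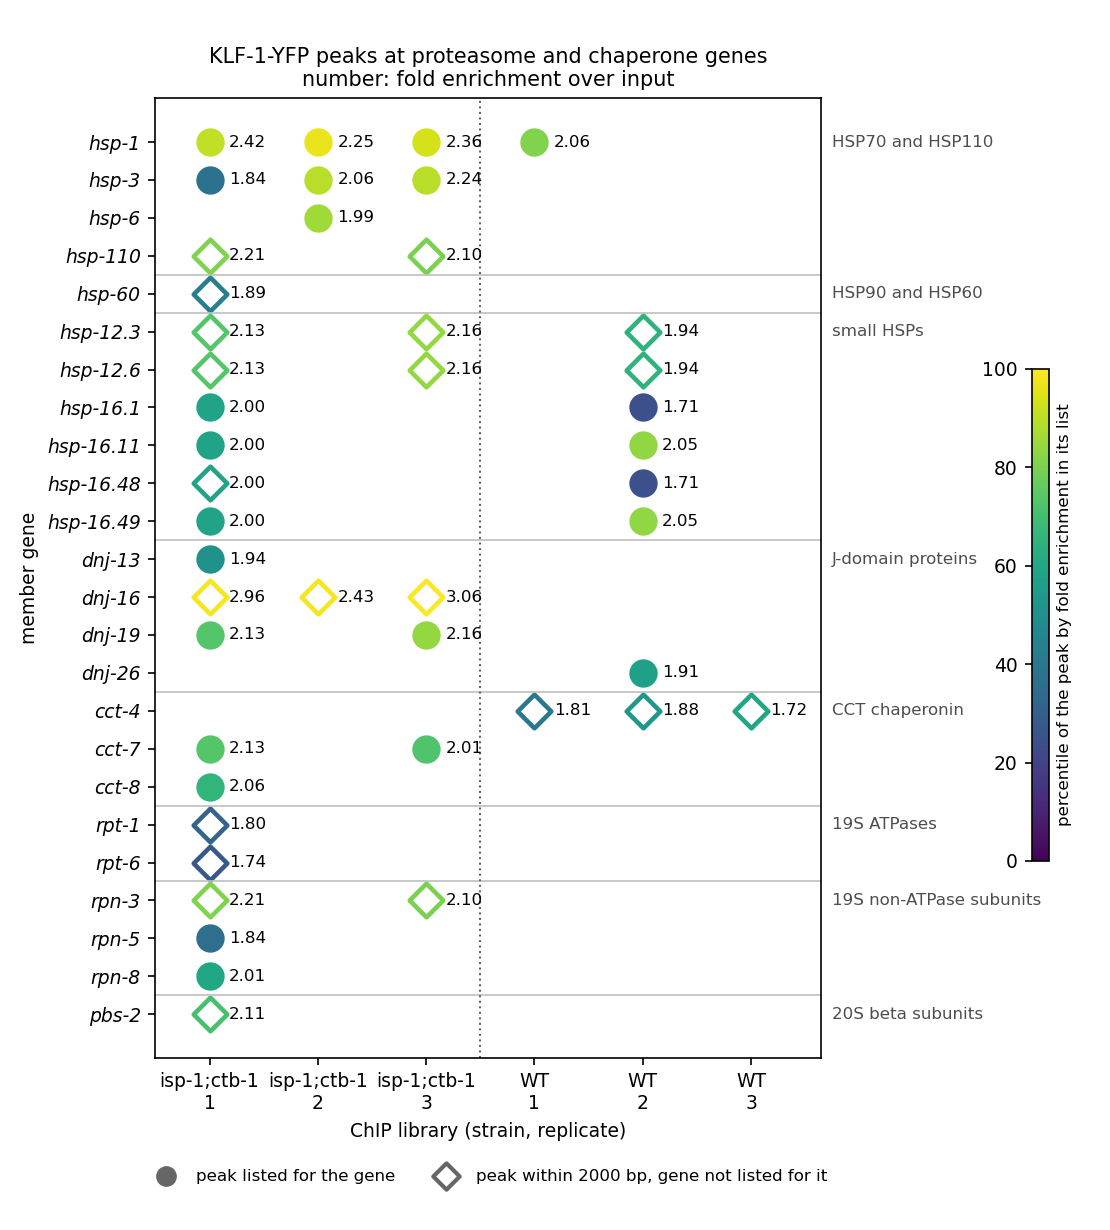
Every member with a peak (rows, by role) in the 3 *isp-1;ctb-1* and 3 WT ChIP libraries (columns). Filled circles are peaks listed for the gene and open diamonds are peaks within 2000 bp for which the gene was not listed; the number is the fold enrichment over input, of the nearest peak where there are several, and the colour its percentile in its own list. *hsp-1* and *hsp-3* are filled in all 3 *isp-1;ctb-1* libraries, *dnj-16* is open in the same 3, and *cct-4* is open in the 3 WT libraries alone.

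The *hsp-16* genes encode small HSPs that are induced by heat. Of the *hsp-16* genes, only the 4 on chromosome V between 9087293 and 9090604 were listed. They form divergent pairs, *hsp-16.1* with *hsp-16.48* across a gap of 348 bp and *hsp-16.49* with *hsp-16.11* across a gap of 310 bp. *isp-1;ctb-1* replicate 1 had a single peak there, of 238 bp, in the gap of *hsp-16.49* and *hsp-16.11* (9089822 to 9090059), with a fold enrichment of 2.00. It ended 56 bp from *hsp-16.49* and 18 bp from *hsp-16.11*, and was also assigned to *hsp-16.1* at 2040 bp. WT replicate 2 had 3 peaks. The widest (9089712 to 9090169, fold enrichment 2.05) contained the whole *isp-1;ctb-1* peak and reached into both genes of the pair. One in the other gap (9087731 to 9088064, fold enrichment 1.71) overlapped *hsp-16.1* and lay 67 bp from *hsp-16.48*. The last (9090548 to 9090787, fold enrichment 1.92) overlapped the far end of *hsp-16.11*. In their own library these WT peaks had folds that differed from that of mitochondrial DNA by 2.07%, -14.7% and -4.39%. The pairs are near-identical copies in inverted order, so a read may fit either copy, and which of them gave the signal is uncertain. The paired genes *hsp-16.2* and *hsp-16.41* elsewhere on chromosome V had no peak within 2000 bp in any library.

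The proteasome genes that were listed stood far from their peaks. *rpn-5*, for a lid subunit of the 19S cap, was listed in *isp-1;ctb-1* replicate 1 with a fold enrichment of 1.84 at 3244 bp upstream, and the same peak lay 147 bp from *unc-85*, a histone chaperone gene. *rpn-8*, for another lid subunit, was listed in the same library with a fold enrichment of 2.01 at 3046 bp, and its peak lay 464 bp from *egg-5*. WT libraries listed 0 of the 33 proteasome genes, beside 1.97% of all protein-coding genes, so this count is not a result about them.

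Of the 29 member rows, 7 placed the peak over the gene (24.1%), 22 upstream and 0 downstream. The study's methods describe genes up to 2000 bp upstream or downstream of a peak. The lists instead placed 0 of the 2636 rows of all protein-coding genes downstream and reached up to 4886 bp upstream. The absence of downstream rows is therefore a property of the lists. The corresponding share over the gene was 23.4% in all protein-coding rows. Members had shorter distances: 20 of 29 rows (69%) were over the gene or within 500 bp upstream, beside 36.1% of all protein-coding rows, and the median upstream distance was 262 bp, beside 2295.5 bp. This median was 245 bp in *isp-1;ctb-1* (beside 1990.5 bp in all rows of that strain) and 1930 bp in WT (beside 2682 bp). The WT value rests on 7 upstream rows, most of them of the *hsp-16* genes in WT replicate 2. The value of 1930 bp is itself a row of *hsp-16.1*, so this median is largely that of 1 gene cluster in 1 library. By strain, 15 of 19 *isp-1;ctb-1* rows (78.9%) and 5 of 10 WT rows (50%) were over the gene or within 500 bp, beside 39.5% and 31.3% of all rows of these strains. Rows that share a peak or a gene are not independent, and no test was made on them. The share of member rows over the gene was 16.7%, 33.3% and 25% in *isp-1;ctb-1* replicates 1 to 3, and 0% and 33.3% in WT replicates 1 and 2. The means of 25% ± 8.33 (SD, n = 3) and 16.7% ± 23.6 (SD, n = 2) differed by 8.33 percentage points (exact permutation test, p = 0.7, adjusted p = 0.7), and by -8.33 points without WT replicate 1. WT replicate 3 has no value because it listed no member.

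**Figure D4:**
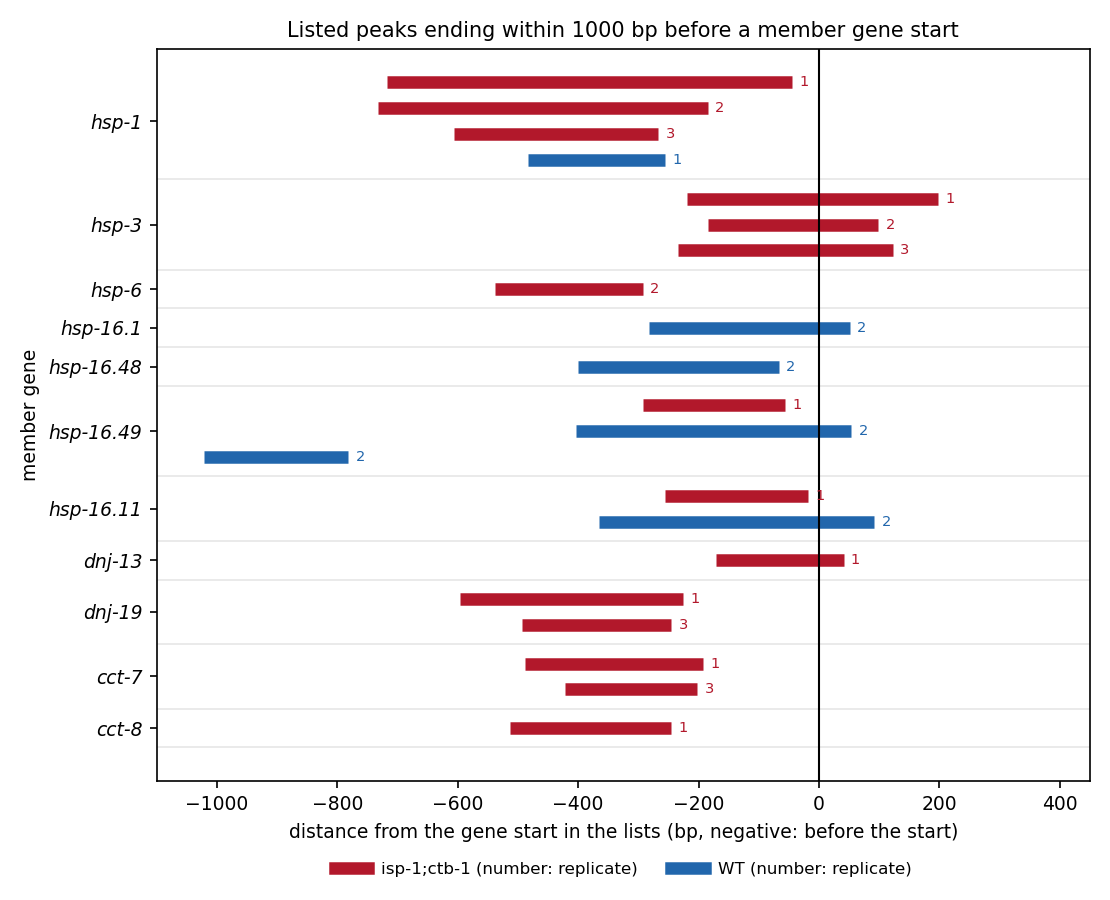
Spans of the listed peaks that end within 1000 bp before a member gene start or cross it (horizontal axis, bp from the start in the lists, negative before it), in *isp-1;ctb-1* (red) and WT (blue), with the replicate number at the right end. The 4 peaks of *hsp-1* overlap each other before the start, those of *hsp-3* cross it, and those of *dnj-19* and *cct-7* end 193 to 245 bp before it.

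Member peaks spanned 213 to 675 bp, with fold enrichments of 1.71 to 2.42, and lay between percentiles 24.5 and 96.6 of their lists by fold. The median percentile of member peaks was 62.6, 89.4 and 86.6 in *isp-1;ctb-1* replicates 1 to 3, and 80.9 and 58.5 in WT replicates 1 and 2. The means of 79.5 ± 14.7 (SD, n = 3) and 69.7 ± 15.8 (SD, n = 2) differed by 9.79 (exact permutation test, p = 0.5, adjusted p = 0.667), and by -1.41 without WT replicate 2. Of the 22 member peaks, 21 were assigned to at least 1 further gene, so that a row names a member as a neighbour of a peak and not as its sole candidate.

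The lists leave some members beside a peak unnamed. Measured from the RefSeq gene span, 21 of 94 members (22.3%) had a peak within 2000 bp in at least 1 library, beside 6.09% of all protein-coding genes. Within 1000 bp the numbers were 18 members and 4.49%. In *isp-1;ctb-1* libraries 19 members had such a peak (5.25% of all protein-coding genes), and in WT libraries 8 did (2.3%). At least 2 of 3 *isp-1;ctb-1* libraries had such a peak for 9 members (2.4%), and at least 2 of 3 WT libraries for 1 member, *cct-4* (1.33%), with 0 in both strains (0.821%). A peak in the 3 *isp-1;ctb-1* and 0 WT libraries was found beside *hsp-3* and *dnj-16* (2 members, beside 0.555%), the opposite pattern beside *cct-4* alone (0.0601%), and a peak in all 6 libraries beside 0 members (0.3%). These counts also rested on single libraries: without *isp-1;ctb-1* replicate 1, 10 members had a peak in that strain (beside 2.96% of all protein-coding genes) and 3 had one in at least 2 libraries (beside 1.49%). Without its replicate 3, 3 members had one in at least 2 libraries (beside 1.28%). Without WT replicate 2, 2 members had a peak in WT (2.13%, beside 1.8%), a share near the background. The same holds for the 1 member with a peak in at least 2 WT libraries and for the counts of 0. These are not a result about the members.

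The most strongly enriched of these peaks was the one beside *dnj-16*, a J-domain protein gene (III, 4191199 to 4193429). It had fold enrichments of 2.96, 2.43 and 3.06 in *isp-1;ctb-1* replicates 1, 2 and 3, in each list above every listed member peak, with no WT counterpart. It ended 145 to 205 bp from *dnj-16*, lay over *xbp-1*, the transcription factor gene of the ER unfolded protein response, and was assigned to no gene. Another peak without an assigned gene lay in the 443 bp gap between *hsp-110*, whose product is a nucleotide exchange factor of HSP70, and *rpn-3*, a lid subunit gene of the proteasome. Its fold enrichment was 2.21 in *isp-1;ctb-1* replicate 1 and 2.10 in replicate 3, with 114 and 131 bp to *rpn-3*. It reached into *hsp-110* in the first of these and ended 114 bp from it in the other.

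The small HSP gene *hsp-12.3* had a peak in *isp-1;ctb-1* replicates 1 and 3 and in WT replicate 2, at fold enrichments of 2.13 and 2.16 in *isp-1;ctb-1* and of 1.94 in WT. The peaks lay 20 and 99 bp from the gene in *isp-1;ctb-1* and 194 bp in WT, and were listed for other genes. They also lay 1458 to 1632 bp from *hsp-12.6*. *cct-4*, a CCT subunit gene, had a peak in the 3 WT libraries and none in *isp-1;ctb-1*, with fold enrichments of 1.81, 1.88 and 1.72, at 1893 to 1913 bp. These folds were below that of mitochondrial DNA in the same libraries (2.06, 2.01 and 1.89), but so was the median fold of each WT list (1.86, 1.86 and 1.67). The *cct-4* peaks stood at percentiles 40.1, 53.2 and 58.9 of their lists and were listed for other genes. Proteasome genes beside a peak of *isp-1;ctb-1* replicate 1 were the ATPase genes *rpt-1* (382 bp, fold enrichment 1.80) and *rpt-6* (1388 bp, 1.74) and the beta subunit gene *pbs-2* (522 bp, 2.11). Each was found in that library alone. Of the 21 genes, 10 were not listed and are those named here and *hsp-60*, and 11 were listed; the other 3 listed genes, *dnj-26*, *rpn-5* and *rpn-8*, had their peak farther away.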

How the data were processed

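KLF-1-YFP ChIP-seq was analysed from 3 ChIP libraries per strain, grouped by their labels, with 12 libraries in all including inputs. Peaks were called by the authors in the QuickNGS pipeline (BWA, its version not stated; genome and genes of Ensembl release 93; FastQC 0.10.1; MACS2 2.0.10), library by library with the matching input. The deposited lists give each peak's fold enrichment (a ratio to input, compared here only within its own list) and a deposited p-value for peaks with an assigned gene, of which no source used here says what it tests. The lists hold no read counts, so no interval on a single peak can be given. The authors' table of the comparison between strains holds means, folds and p-values and was not used.

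Genes were matched by ID and span to the RefSeq table of WBcel235, and 949 of the 976 protein-coding IDs in the lists matched. Distances run from the peak edge to the gene span of the list, and for peaks not assigned to a member to the RefSeq span (up to 2000 bp on either side). Some *hsp-16* rows carry 2 symbols and were resolved by ID and span. Library values were compared by two-sided exact permutation tests; where no source says that replicates are separate cultures, p-values measure only the spread between these libraries. Every listed member was named, with full values for those in 2 or more libraries; other genes were named where they shared a peak with a member or stood on a list of other proteostasis genes. Members, lists and rules were chosen with earlier results of these data known. Alternatives were the stated threshold (fold over 1.5, p under 0.05), a fold limit alone, a distance limit of 2000 bp, leaving out long peaks, other numbers of libraries, each library left out, a replicate block and other gene distances (1000 and 5000 bp). Scripts were tested on simulated data (Python 3.11.15, numpy 2.4.6, pandas 2.3.3). Promoter sequences and motifs were not analysed here.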

Additional observations from a re-analysis of the deposited data

How the results depend on the processing

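The 4 compared values kept their direction except that the difference in median percentile was -1.41 without WT replicate 2 and the difference in the share of rows over the gene was -8.33 percentage points without WT replicate 1; the cause was not tested. With each library left out in turn, the difference in member genes per library ranged from 1.5 to 5.5, that in their share of listed genes from 0.271 to 1.08 percentage points, that in the median percentile from -1.41 to 21, and that in the share over the gene from -8.33 to 25 points. In the 44 alternatives with a test the smallest p was 0.1, the smallest that 3 libraries against 3 can give. It was reached with the *hsp-16* genes counted as 1, a choice made after seeing the data, and for the share without WT replicate 2. The replicate block cannot go below 0.25, and some tests with a library left out cannot reach 0.1 either. At the stated threshold (fold over 1.5, p under 0.05), 1 member was listed in any library in place of 14 (1.06% in place of 14.9%), while all protein-coding genes went to 260 in place of 949 (1.3% in place of 4.75%). The members' share was then no longer above that of all genes, but 1 gene is too few to place it above or below. At that threshold 0 members in place of 4 were listed in at least 2 *isp-1;ctb-1* libraries. Required in all 3 libraries, the *isp-1;ctb-1* count was 2. The share of all protein-coding genes was not computed for these 2 settings, so neither count is a result about the members. In at least 1 library the counts were 12 for *isp-1;ctb-1*, 6 for WT and 4 for both strains (beside 4.01%, 1.97% and 1.23% of all protein-coding genes). Leaving out an *isp-1;ctb-1* library gave 2 to 4 members in at least 2 libraries of that strain, beside 1.02% to 1.47% of all protein-coding genes. The remaining 90 alternatives kept the direction of a difference or a count within 1.5 times. Among these, the stated threshold gave a difference of 0.333 member genes per library and of 0.253 percentage points in their share, with 1 member row left. With only peaks over the gene or at most 2000 bp upstream, 11 members were listed in any library in place of 14. Those lost were *dnj-26* and both listed proteasome genes, *rpn-5* and *rpn-8*. The share of all protein-coding genes at that limit was not computed. The labels do not say whether libraries with equal replicate numbers were processed together. Correlations of deviations were -0.0988, 0.0506 and -0.172 for equal numbers and -0.151 to 0.254 for unequal numbers, which cannot settle this. With the replicate block the difference in member genes was 4 with an exact sign-flip p of 0.5. Read depth is not in the lists, and genes without a row may still carry signal under the calling limit.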

Other observations

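Of 50 further proteostasis genes outside the named families, chosen with earlier results of these data known, 4 (8%, beside 4.75% of all protein-coding genes) were listed. A further name on that list, *daf-21*, is an older name of the member *hsp-90* and was left out. *enpl-1*, which encodes the HSP90 of the endoplasmic reticulum, had a peak over the gene in 4 libraries, with fold enrichments of 2.07, 1.97 and 2.41 in *isp-1;ctb-1* replicates 1, 2 and 3 and of 2.25 in WT replicate 1. This is the same set of libraries that listed *hsp-1*. How many of all protein-coding genes have that set was not computed, so the match is not a result about either gene. The 3 others were listed in *isp-1;ctb-1* replicate 1 alone. *cdc-48.1*, for the p97 ATPase that extracts ubiquitinated proteins, had a peak 48 bp upstream with a fold enrichment of 2.45 and a deposited p of 0.0313. *crt-1*, for calreticulin, had one 139 bp upstream (fold enrichment 1.79), and *aip-1*, for an arsenite-inducible protein that binds the proteasome, one over the gene (1.91). Counting *xbp-1*, whose peaks in the 3 *isp-1;ctb-1* libraries were assigned to no gene, 5 of the 50 (10%, beside 6.09%) had a peak within 2000 bp. The genes of the other stress regulators on the list, *hsf-1*, *atf-6*, *ire-1*, *pek-1*, *atfs-1*, *skn-1* and *dve-1*, had none in any library. With 6.09% of all protein-coding genes having such a peak, none among so few genes is not a result about them.

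The middle of the peak lay between 500 bp before and 100 bp after the gene start in 15 of 19 *isp-1;ctb-1* member rows (78.9%, beside 22.5% of all protein-coding rows of that strain) and in 5 of 10 WT member rows (50%, beside 4.56%). This window was chosen after the data were seen, so the high shares of members are a description and no support for a preference. Rows that share a peak or a gene are not independent, and 4 of these 5 WT rows belong to the *hsp-16* genes.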
